A study of Drosophila melanogaster with 2 samples.

Results

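Drosophila gene symbols that begin with CR mark genes annotated as making RNA without a protein product. The abundant ones were compared between whole adult male Drosophila melanogaster that overexpressed the microRNA miR-305 and males that carried the driver alone. The deposited table gives FPKM (fragments per kilobase of transcript, scaled to mapped fragments) for 15906 features, of which 1927 are named by a single CR symbol. The 115 CR features with a mean of at least 20 FPKM over both libraries were chosen by that mean, so their high level is no finding. The miR-305 flies were da-Gal4/UAS-miR305 and the control flies were da-Gal4/+, all 15-day-old adult males. The UAS-miR305 insertion and any other strain difference go with the miR-305 group, so they cannot be told apart from the overexpression. The daughterless (da) driver is active in nearly all tissues and was present in both groups, and whole bodies mix the RNA of all tissues. Each group had 1 library, for which the labels state no number of flies, and no difference below has a replicate check or a test.

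The 2 libraries held 14241 features above 0 in the miR-305 flies and 14389 in the control flies, and their FPKM values summed to 1176985 and 967511. The mir-305 hairpin had 546 FPKM in miR-305 flies and was listed at 0 in control flies. The male-specific noncoding RNA roX1, which helps to raise X-linked transcription in males, had 297 FPKM in miR-305 flies and 295 in control flies, and the 3 yolk protein genes of females summed to 5.47 and 6.80 FPKM. Markers of some tissues differed between the libraries. The 11 accessory gland markers that were found summed to 129099 FPKM in miR-305 flies and 66001 in control flies, with 11 of 11 higher. The 13 testis markers summed to 1949 and 2705 FPKM, with 10 of 13 lower, and the 4 fat body markers summed to 594 and 185 FPKM, with 4 of 4 higher. The 5 muscle markers summed to 1313 and 1316 FPKM, with 3 higher and 2 lower, and the 6 neuron markers to 58.4 and 67.0, with 5 lower. The 5 photoreceptor markers summed to 2836 and 2393 FPKM, yet 3 of the 5 were lower in miR-305 flies. No marker found was at 0 in either library. The part of these tissue differences in the CR values was not tested, and in whole bodies a change in the number of cells of a type and a change in RNA per cell cannot be told apart.

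Noncoding transcripts of these kinds act in different ways. Ribosomal RNA is the core of the ribosome and is copied from repeated genes on the X and Y chromosomes. Antisense RNAs are read from the strand opposite a protein-coding gene and can affect that gene or be by-products of transcription. Long noncoding RNAs can lie between genes, within introns or over exons of other genes, and few of those in the fly have a known role. MicroRNAs such as miR-305 pair with messenger RNAs through a short seed and lower their stability or translation.

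The name CR covered several kinds of RNA. Of the 115, 97 were found in the Ensembl annotation of the same build as genes that overlap their deposited locus. A further 7 were found under another symbol in RefSeq, and 11 were not matched. By these annotations and the deposited descriptions, 49 were long noncoding RNAs, 47 were antisense RNAs, 13 were ribosomal RNA, 5 are now annotated as protein-coding and 1 as a small nuclear RNA. The 5 with a protein-coding annotation were CR44388 (now CG44388), CR17567 (CG46059), CR44198 (CG44198), CR43051 (CG43051) and CR45045 (CG45045). The small nuclear RNA was CR43708, which RefSeq names snRNA:LU, and CR31451 is now the long noncoding RNA mimi.

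The 115 CR RNAs held a like share of both libraries, and a few differed by far more than the rest. Their share of the summed FPKM was 2.05% in miR-305 flies and 2.11% in control flies. The median was 46.7 FPKM in miR-305 flies and 41.9 in control flies, and the values ran from 4.98 to 3235 FPKM in miR-305 flies and from a listed 0 to 2350 FPKM in control flies. Log2 ratios compare FPKM + 1 in miR-305 flies with FPKM + 1 in control flies, a scale that shrinks differences of low genes, and a feature was called at 2-fold on it. At that size 5 were higher, 5 were lower and 105 (91.3%) lay within 2-fold. Of all 11936 features with a mean of at least 1 FPKM, 2.36% were called higher, 1.74% lower and 4.11% in either direction. Among the 4310 features at the members' own level of at least 20 FPKM, 3.2% were called higher, 1.37% lower and 4.57% in either direction, and 8.70% of the CR RNAs were. The median log2 ratio of the CR RNAs was 0.14, against -0.03 over all 11936 features and 0.05 over the 4310. Scaling to the same sum shifted the median of all features by -0.25, which made it -0.27, and turned the CR median to -0.14. Scaling to the same median or the same upper quartile shifted the median of all features the other way, by 0.05 and 0.02. The CR median was then 0.20 and 0.15.

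**Figure D1:**
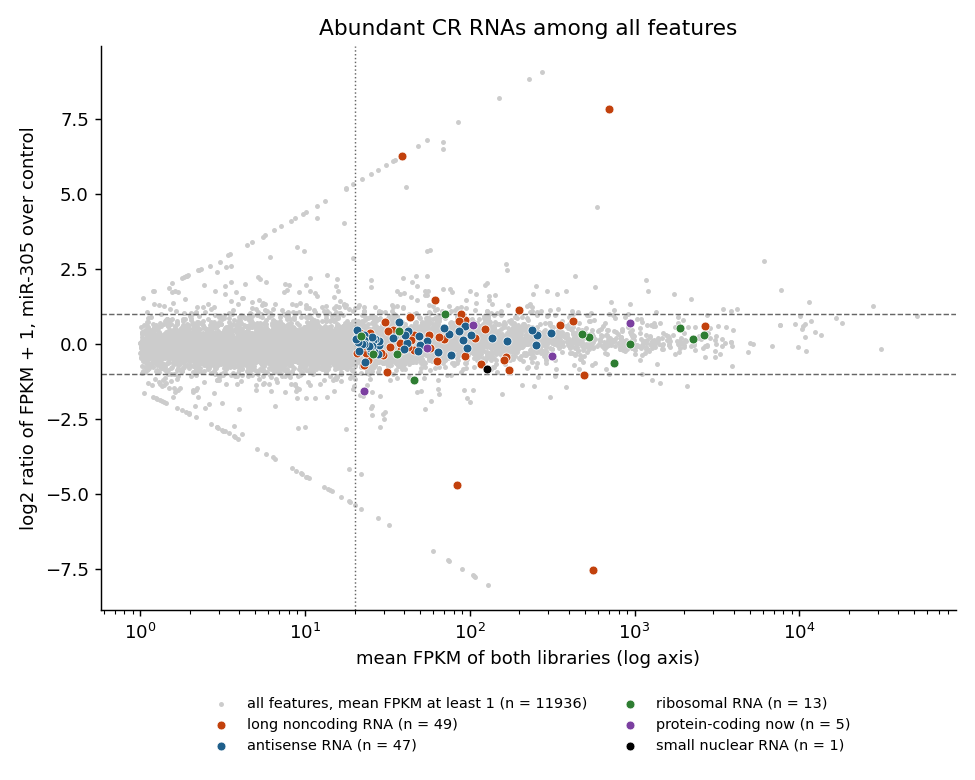
Log2 ratio of FPKM + 1, miR-305 over control, against the mean FPKM of both libraries (log axis); each point is a feature, grey for all 11936 features with a mean of at least 1 FPKM and coloured for the 115 CR RNAs by class. Dashed lines mark 2-fold and the dotted line marks 20 FPKM; 105 of the CR RNAs lie between the dashed lines and 4 lie beyond 4-fold.

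Among the 115, the largest differences belonged to 4 long noncoding RNAs, each far more abundant in 1 of the libraries. Whether they go with miR-305 or with the strain cannot be told apart. CR40469 (dm6 build, chromosome X, 122493 to 122706, plus strand, 214 nt, 1 exon) had 1396 FPKM in miR-305 flies and 5.01 in control flies, which is 279-fold higher. CR34335 (X, 3545750 to 3546110, minus strand, 361 nt, 1 exon) had 4.98 FPKM in miR-305 flies and 1119 in control flies, which is 225-fold lower. CR44138 (chromosome 3R, 13376903 to 13377395, plus strand, 493 nt) had 5.19 and 161 FPKM and was 31.0-fold lower in the miR-305 library. CR43358 (chromosome 2L, 18293733 to 18294056, minus strand, 271 nt in 2 exons) had 77.2 FPKM in miR-305 flies and was listed at 0 in control flies, so no fold is given. The deposited locus of CR34335 is 200464 bases long and overlaps 15 other features, and that of CR44138 overlaps 2. Those of CR40469 and CR43358 overlap no other feature. These 4 are the CR RNAs past 4-fold (3.48% of 115), and 1.23% of all features with a mean of at least 1 FPKM and 1.30% of those with at least 20 FPKM were past 4-fold.

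The genes around these 4 RNAs did not show differences of that size. CR34335 lies within an intron of DIP-alpha, an immunoglobulin-domain protein of the neuronal surface, on the same strand. The deposited row that holds DIP-alpha, which carries a further symbol, had 5.89 FPKM in miR-305 flies and 5.15 in control flies. CR44138 lies within an intron of CG9813 on the opposite strand, and CG9813 had 30.2 FPKM in miR-305 flies and 31.2 in control flies. No annotated gene overlapped CR40469, whose nearest protein-coding gene, CG17636, lies 1663 bases away and had 10.5 FPKM in miR-305 flies and 8.21 in control flies. CR43358 stands between the seminal fluid protein gene Sfp36F, 899 bases away, and CG5790, 783 bases away. Sfp36F had 63.5 FPKM in miR-305 flies and 30.6 in control flies, and CG5790 had 19.97 and 27.1 FPKM.

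The other 6 RNAs past 2-fold had ratios between 2.03-fold and 3.13-fold and were well above 0 in both libraries. Higher in the miR-305 library were CR44821 (2L, 5661902 to 5662232; 91.2 FPKM against 32.4 in control flies, 2.81-fold), CR43888 (3L, 21735866 to 21736201; 273 against 124, 2.203-fold) and CR43912 (3L, 13287769 to 13291770; 119 against 58.2, 2.04-fold). The deposited locus of CR43912 is only 1177 bases long, so the gene model behind its value is shorter than the annotated transcript of 3947 nt. Lower in the miR-305 library were CR45045 (3R, 17667572 to 17667825; 11.01 FPKM against 34.5 in control flies, 3.13-fold), CR40594 (27.5 against 64.6, 2.35-fold) and CR43684 (3L, 15062207 to 15062622; 328 against 666, 2.03-fold).

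Of these 6, CR45045 and CR43684 lie within introns of genes on the same strand. The host of CR45045, CG14322, had 4.53 FPKM in miR-305 flies and 4.45 in control flies. The host of CR43684, the synaptotagmin gene Sytbeta, had 0.80 and 1.202 FPKM. CR44821 lies 616 bases from Hsp60C, a mitochondrial chaperonin gene, which had 96.8 FPKM in miR-305 flies and 130 in control flies. CR43888 lies 1077 bases from CG14573, which was near 0 in both libraries (0.10 and 0.046 FPKM), and on its other side 1504 bases from CG14567, which had 16.4 FPKM in miR-305 flies and 30.9 in control flies. CR43912 lies 4759 bases from the seminal fluid protein gene Sfp70A4, which had 366 FPKM in miR-305 flies and 307 in control flies.

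The 2-fold calls nearest the threshold depended on scaling. CR43912 was no longer past 2-fold with the same sum or a pseudocount of 5, CR43888 was not with the same sum, and CR43684 was not with the same median. The other 7 were past 2-fold under each pseudocount and scaling that was tried: CR34335, CR40469, CR40594, CR43358, CR44138, CR44821 and CR45045.

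**Figure D2:**
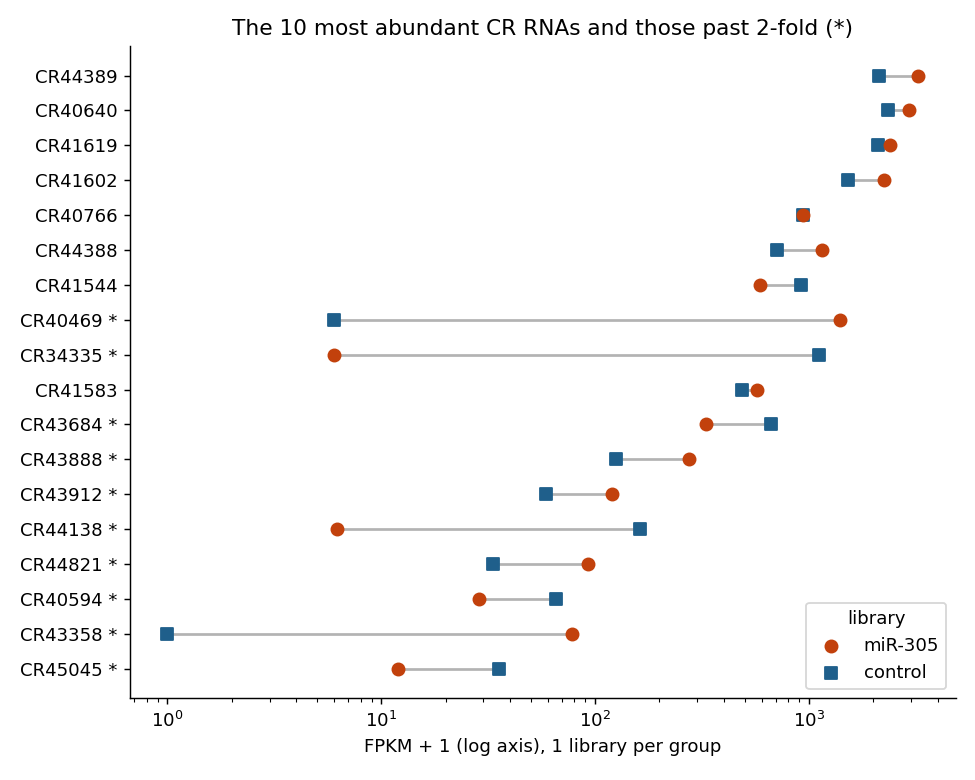
FPKM + 1 in the miR-305 library (circles) and the control library (squares) on a log axis, for the 10 most abundant CR RNAs and the 10 past 2-fold (marked *), ordered by mean FPKM; each point is 1 library. CR40469, CR34335, CR44138 and CR43358 span the widest distances, and CR43358, listed at 0 in control flies, sits at 1 on this axis.

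Between 1.5-fold and 2-fold, 12 further CR RNAs were higher and 7 were lower, so 29 of 115 were past 1.5-fold and 74.8% lay within it. Of all features with a mean of at least 1 FPKM, 12% were past 1.5-fold, and of those with at least 20 FPKM, 12.8% were. The higher ones included CR40668 (ribosomal, 93.9 FPKM in miR-305 flies and 46.6 in control), CR43239 (109 and 62.9), CR44805 (533 and 311), CR44546 (432 and 277) and CR45438 (38.5 and 22.6). CR40668 was 2.02-fold higher in FPKM but stood at 0.996 on the log2(FPKM + 1) scale, just under the threshold of 1, and passed it when the pseudocount was 0.1 or the libraries had the same median or upper quartile. The lower ones were CR32690 (21.3 FPKM in miR-305 flies and 41.8 in control), CR32657 (122 and 223), CR43708 (90.9 and 163), CR42767 (17.2 and 28.3), CR44455 (89.4 and 143), CR41544 (ribosomal, 588 and 916) and CR43806 (18.0 and 28.0). Scaled to the same sum, CR32690, CR32657 and CR43708 also passed 2-fold.

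Ribosomal RNA fragments and pseudogenes were the most abundant class per member. The libraries were made with an mRNA kit, and how far these values follow the ribosomal RNA level in the flies was not tested. The 13 ribosomal members summed to 10437 FPKM in miR-305 flies and 8985 in control flies, which is 43.4% and 44.0% of all FPKM in the 115. Of the 7 most abundant members 5 were ribosomal. CR40640 had 2922 FPKM in miR-305 flies and 2350 in control flies, CR41619 had 2404 and 2112, CR41602 had 2236 and 1530, and CR40766 had 942 and 936. CR41583 had 571 FPKM in miR-305 flies and 486 in control flies, and CR40962 had 532 and 423. CR41544 and CR40594 lay on the other side, with lower values in the miR-305 library. Of the 13, 1 (7.69%) was called. Of all features, 4.11% with a mean of at least 1 FPKM and 4.57% with at least 20 FPKM were called. Over the class, 9 of 13 had a ratio above 0 and the median was 0.23. Scaled to the same sum, 5 of 13 lay above 0 and the median was -0.05.

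The ribosomal members lie in the repeated DNA that assemblies hold as fragments. Of the 13, 3 are on the X chromosome, 3 on unplaced X scaffolds and 7 on scaffolds with no chromosome. Of these, 2 were matched, CR41602 to an 18S ribosomal RNA pseudogene and CR40677 to a 2S ribosomal RNA pseudogene of 30 nt. The deposited locus of CR40677 is 931 bases long and overlaps no other feature, so the model behind its value is longer than the annotated 30 nt. That of CR41602 is 6026 bases long and also overlaps no other feature, so its model spans more than the annotated 1975 nt. Near-identical copies share reads, so the split of the ribosomal FPKM among the 13 is uncertain. A further 34 CR features described as ribosomal RNA fell under 20 FPKM, 14 of them listed at 0 in both libraries.

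None of the 47 antisense RNAs was called, under each pseudocount and scaling that was tried, beside 4.11% of all features with a mean of at least 1 FPKM and 4.57% of those with at least 20 FPKM. At these shares a class of 47 holds few calls, so the count of 0 sets it little apart. Within 1.5-fold lay 44 (93.6%), beside 88.0% and 87.2% of the same features. The log2 ratios ran from -0.61 (CR43806) to 0.75 (CR43866), with a median of 0.14 and 31 of 47 above 0. Scaled to the same sum, 14 of 47 lay above 0 and the median was -0.14. Together they had 3295 FPKM in miR-305 flies and 2897 in control flies. The long noncoding RNAs were spread more widely. Of 49, 8 (16.3%) were called, 5 higher and 3 lower, beside the same 4.11% and 4.57%. Within 1.5-fold lay 30 (61.2%), beside 88.0% and 87.2%. Among features not named CR with at least 20 FPKM and a transcript of 200 to under 500 nt, 10.3% were called. The quartiles of the log2 ratios of the long noncoding RNAs were -0.40 and 0.52, against -0.06 and 0.31 for the antisense RNAs. Their median was 0.05 with 25 of 49 above 0, and it turned to -0.23 with 19 of 49 above 0 after scaling to the same sum.

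**Figure D3:**
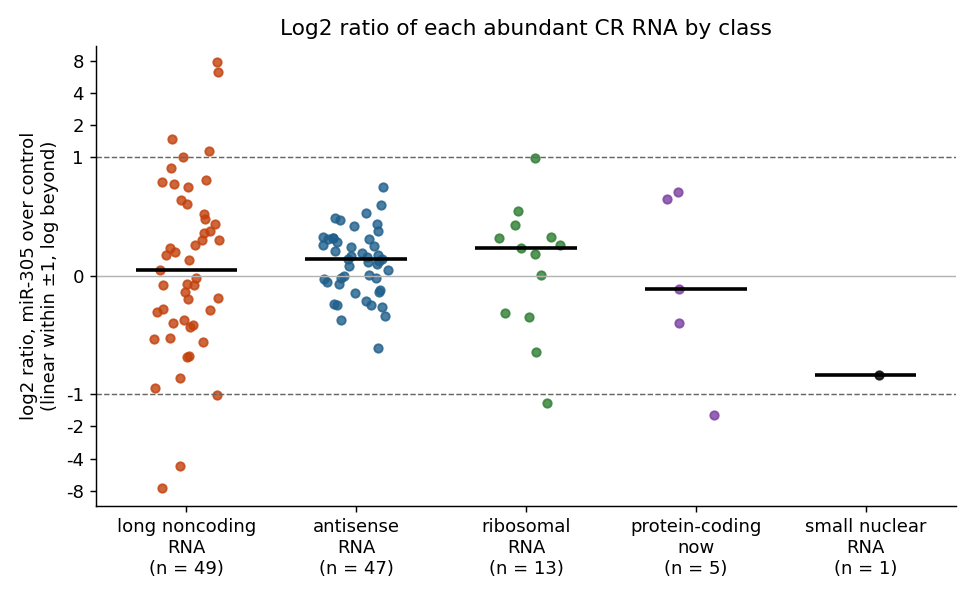
Log2 ratio of FPKM + 1, miR-305 over control, of each of the 115 CR RNAs by class; points are RNAs, bars are class medians and dashed lines mark 2-fold, on an axis that is linear within 1 and logarithmic beyond. The 47 antisense RNAs lie between -0.61 and 0.75, and 8 of the 49 long noncoding RNAs lie beyond 2-fold.

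The antisense RNAs overlapped exons of protein-coding genes and had ratios near those of their partners. All 47 overlapped exons of a gene on the opposite strand, 46 of them coding sequence, 23 a 5' UTR and 16 a 3' UTR. In 46 cases a partner had a deposited value with a mean of at least 1 FPKM (of several, the gene with most shared exon bases was taken), and a median of 76.1% of the antisense transcript lay in the partner's exons. Left out was CR44179 (45.1 FPKM in miR-305 flies and 52.6 in control), with 91.2% in exons of CG5112, which was listed at 0 in both libraries. The partner rows of CR31144, CR44116, CR45007, CR45026, CR45141 and CR45192 hold a further symbol, so their values are not of the partner alone. No partner and no antisense RNA of the 46 pairs was past 2-fold. The ratio had the same sign in 35 of 46 pairs, 25 with both higher and 10 with both lower. After scaling to the same sum it did in 39 of 46, as 10 and 29. The log2 ratios differed by less than 0.2 in 29 pairs. Both sides leaned higher, with a median log2 ratio of 0.14 for the antisense RNAs and 0.14 for the partners. Of all features with at least 20 FPKM, 87.2% lay within 1.5-fold. Unrelated genes would therefore share a sign or lie close in many pairs, and how many was not computed. Across the 46 pairs the log2 ratios had a Pearson r of 0.62 and a Spearman rho of 0.58. This describes genes within 1 pair of libraries, not replicates, and the pairs share the libraries, the scaling and the overlapping DNA.

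Several pairs had like ratios at unlike levels. CR43866 had 46.7 FPKM in miR-305 flies and 27.4 in control flies, and its partner Gal, a beta-galactosidase gene, had 32.8 and 19.6 FPKM. CR45175 had 82.6 and 57.0 FPKM, and its partner CG5567 had 39.5 and 29.2 FPKM. CR45162 had 67.0 FPKM in miR-305 flies and 86.8 in control flies, and its partner CG9389 had 37.1 and 51.8 FPKM. The antisense RNA and the gene were thus higher together in some pairs and lower together in this one.

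Other pairs parted. CR44108 had 58.6 FPKM in miR-305 flies and 69.9 in control flies, while Shmt, which makes glycine from serine, had 136 and 103 FPKM. CR45397 had 23.8 and 28.8 FPKM, and its partner CG32147 had 11.1 FPKM in miR-305 flies and 8.84 in control flies. CR43806 had 18.0 FPKM in miR-305 flies and 28.0 in control flies, whereas the calcium channel gene Ca-alpha1D had 7.15 and 7.91 FPKM.

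Among 46 pairs the antisense RNA had the higher FPKM in 35. The antisense RNAs were chosen for a mean of at least 20 FPKM, while a partner needed only 1 FPKM. That choice favours the antisense side in this count and in the counts by overlap below, so they are no finding. CR45161, opposite the flight muscle gene fln, had 92.1 FPKM in miR-305 flies and 100.3 in control flies, against 11.4 and 12.8 FPKM for fln itself. CR45275 had 146 and 126 FPKM, against 11.4 and 10.8 FPKM for its partner CG14483. The reverse held for CR31144, with 249.5 FPKM in miR-305 flies and 253 in control opposite the ribosomal protein gene RpL3 (809 and 950 FPKM, in a row that also holds a snoRNA), and for CR44095 opposite the cystatin gene Cys. Where 75% or more of the antisense transcript lay in the partner's exons, r was 0.70 over 23 pairs and the antisense RNA had the higher value in 20. Where less did, r was 0.54 over 23 pairs and the antisense RNA had the higher value in 15. The kit marks strand, but the labels do not say which strand setting the counting used. It is therefore unknown whether the values keep reads of a gene and of its antisense RNA apart. How much of each antisense value comes from reads of the gene was not tested.

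**Figure D4:**
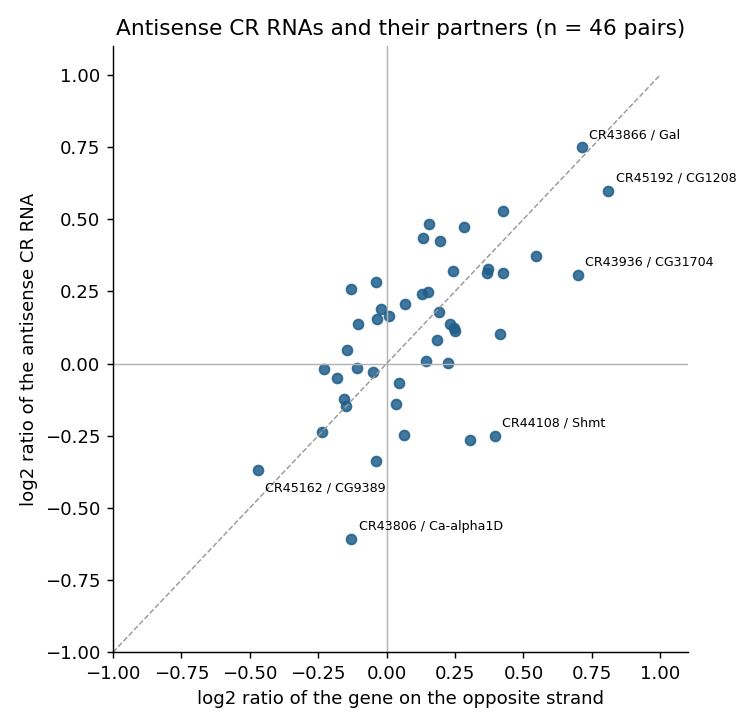
Log2 ratio of FPKM + 1, miR-305 over control, of 46 antisense CR RNAs (vertical axis) and of the protein-coding gene on the opposite strand (horizontal axis); each point is a pair and the dashed line marks equal ratios. Most pairs (35 of 46) have the same sign, and CR44108 with Shmt and CR43806 with Ca-alpha1D stand away from the line. For some pairs, such as CR45192 with CG1208, the row of the gene holds a further symbol.

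The most abundant CR RNA was CR44389 (2R, 17188796 to 17189095, minus strand, 300 nt, 1 exon), with 3235 FPKM in miR-305 flies and 2128 in control flies. Its neighbour CR44388, 1117 bases away on the same strand and now annotated as a protein-coding gene, had 1156 and 710 FPKM. The pair was 1.52-fold and 1.63-fold higher in the miR-305 library. The nearest other gene with signal, CG10950, had 9.25 FPKM in miR-305 flies and 11.1 in control flies. CR44805 and CR44546, both single-exon transcripts of little over 200 nt, had ratios of the same order, 1.72-fold and 1.56-fold higher.

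Members that lie close together had like ratios in some places and unlike ratios in others. CR43633 and CR43634 on 3R, 426 bases apart and on opposite strands, were both higher. CR43633 had 57.0 FPKM in miR-305 flies and 30.002 in control flies (1.90-fold), and CR43634 had 119.8 and 68.0 (1.76-fold). CR32657 and CR32658 both lie within an intron of Ten-a, a teneurin of synapses, on its strand, and both were lower in the miR-305 library, with 122 FPKM against 223 for CR32657 and 80.6 against 107 for CR32658. The row that holds Ten-a had 1.57 FPKM in miR-305 flies and 1.72 in control flies.

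The remaining neighbours each lay within 1.5-fold. CR44114 (36.7 FPKM in miR-305 flies and 32.02 in control) and CR44115 (29.2 and 26.9) were both slightly higher, and slightly lower after scaling to the same sum. CR32661 (42.7 and 48.9 FPKM) and CR43157 (62.9 and 50.7), 446 bases apart on X, lay on opposite sides. So did CR45396 (280 FPKM in miR-305 flies and 200 in control) and CR45397, 1000 bases apart on 3L. On 2L, CR43936 (284 and 229 FPKM) and CR45013 (54.4 and 60.1) lie within Pde1c, in a region that also holds the seminal fluid protein genes Sfp33A3 and Sfp33A4. Sfp33A3, 125 bases from CR43936, had 566 FPKM in miR-305 flies and 419 in control flies, and Sfp33A4, 1339 bases from CR45013, had 245 and 98.0. Of 104 CR RNAs with annotated coordinates, 6 had a flanking gene named Sfp, Acp or Mst57 (CR43936, CR45013, CR43358, CR43912, CR43146 and CR44986), a count made after the values were seen. Of these 6, 4 were higher (3 after scaling to the same sum, which turned CR44986), and CR45013 and CR43146 (25.9 and 34.0 FPKM) were lower.

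The CR RNAs were short and often unspliced. The longest annotated transcript had a median of 583 nt over 104 RNAs with one, 776 nt over the antisense RNAs and 416 nt over the long noncoding RNAs, and 59 of 104 had 1 exon. Deposited loci were longer, with a median of 2936 bases, and 72 of the 115 overlapped loci of other features, so locus length does not give transcript length. Outside the ribosomal class, 8 of 45 RNAs under 500 nt were past 2-fold, against 1 of 57 of 500 nt or more. Features not named CR, at a mean of at least 20 FPKM, showed the same order. Of 362 with a transcript under 500 nt, 25.4% were past 2-fold. Of 262 of these with a transcript of 200 to under 500 nt, 10.3% were, and of 3498 with 500 nt or more, 2.03% were. The number of reads behind each value is unknown here, and the part of transcript length or read number in these shares was not tested.

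**Figure D5:**
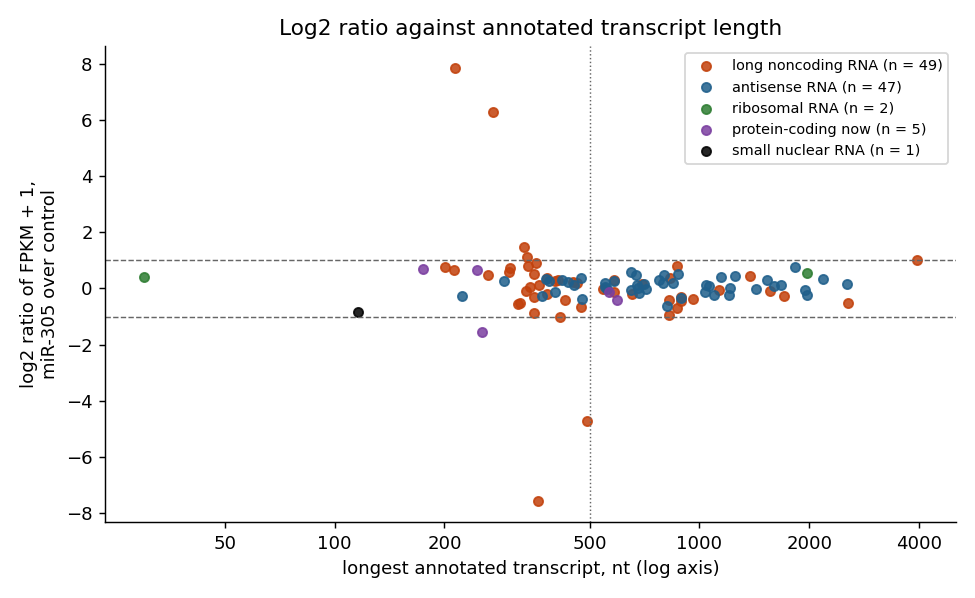
Log2 ratio of FPKM + 1, miR-305 over control, against the longest annotated transcript (log axis, nt) for the 104 CR RNAs with an annotated transcript; dashed lines mark 2-fold and the dotted line marks 500 nt. Outside the ribosomal class, 8 of 45 RNAs under 500 nt and 1 of 57 longer ones lie beyond 2-fold. The deposited model of CR43912, the rightmost point, is at most 1177 bases long. Those of CR40677, annotated at 30 nt, and CR41602, annotated at 1975 nt, span more than their annotation.

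The CR RNAs lay on each large chromosome arm, with 29 on 2L, 16 on 2R, 21 on 3L, 20 on 3R and 19 on X. No member was on chromosome 4 or Y, and 10, all ribosomal, were on other scaffolds. The 16 on 2R were 13.9% of the members, and 2R held 18.7% of the less abundant CR features and 20.2% of all features. Members on 2R had a median log2 ratio of 0.35 with 13 of 16 above 0 (0.08 and 9 of 16 after scaling to the same sum), and those on X had a median of -0.03 with 9 of 19 above 0 (-0.30 and 7 of 19). All features with at least 20 FPKM had medians of 0.05 on 2R and 0.08 on X.

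Less abundant CR features were spread more widely. Of 655 with a mean of 1 to under 20 FPKM, 33 were called higher and 50 lower (12.7% in all). Of all features with a mean of at least 1 FPKM, 4.11% were called, and the share of all features at 1 to under 20 FPKM was not computed. The median log2 ratio of the 655 was -0.06, with quartiles of -0.46 and 0.32, against quartiles of -0.25 and 0.37 for the 115. Just inside the limit of 20 FPKM were CR45007, CR45001, CR43875, CR43805 and CR44116, with means of 20.5 to 21.1 FPKM. CR44046, CR40963, CR45149, CR44047 and CR44995, with means of 18.5 to 19.9 FPKM, were just outside. All 10 lay within 1.5-fold on the log2(FPKM + 1) scale. CR44116 had 21.8 FPKM in miR-305 flies and 19.3 in control flies, and CR44046 had 22.5 and 17.3.

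A list of other named noncoding RNA genes was set beside the CR RNAs. Of its 30 names, 22 had a row of their own, and of the 20 rows with a mean of at least 1 FPKM, 1 was called higher and 1 lower, beside 4.11% of all features called in either direction, and the median log2 ratio was -0.01. Uhg4, a host gene of small nucleolar RNAs, had 15.7 FPKM in miR-305 flies and 31.6 in control flies, a log2 ratio of -0.97 that lay just short of the call. The stress-responsive RNA Hsromega had 88.7 FPKM in miR-305 flies and 102.7 in control flies, and roX2 had 27.2 and 25.8. The transcription regulator RNA 7SK had 130.4 FPKM in miR-305 flies and 90.2 in control flies. RNaseMRP:RNA, which helps to process ribosomal RNA, had 74.7 and 115 FPKM, and RNaseP:RNA, which trims transfer RNAs, had 213 and 189. The main row of 7SLRNA:CR42652, the signal recognition particle RNA, had 154 FPKM in miR-305 flies and 119 in control flies. The 2 rows called were a second, low row of 7SLRNA:CR42652 (4.49 FPKM in miR-305 flies and 0.40 in control) and pncr015:3L (3.56 and 8.81).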

How the data were processed

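RNA was measured in 1 library each of miR-305 and control flies, with 51-base single-end reads from a directional mRNA kit, per the labels' protocols. The authors deposited FPKM per feature. FastQC 0.11.5, TopHat2 2.0.13, Cufflinks 2.2.1 and the dm6 build were used, per the submitters' processing notes. The strand setting, annotation and read totals are not given in the sources used here, so the depth is unknown and intervals cannot be had. A value of exactly 0 may be an estimate that failed, and is called listed at 0.

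Members were rows named by 1 CR symbol with a mean of at least 20 FPKM. The members and lists were chosen with earlier results of these data known. Symbols were matched to Ensembl 115 and RefSeq (Release 6), with the gene required to overlap the deposited locus, and coordinates are 1-based on dm6. The pseudocount was 1, and the background was features with a mean of at least 1 FPKM. With 1 library per group no test was possible. Described by rule were RNAs past 2-fold, the 10 most abundant, the 5 either side of the limit, and members with loci within 5000 bases, with the features that overlap them. RNAs between 1.5-fold and 2-fold, antisense pairs, flanking genes and the other noncoding RNAs named were chosen after their values were seen. Python 3.11.15, numpy 2.4.6, pandas 2.3.3 and matplotlib 3.10.9 were used. The ratio rule was run on simulated data with changes set in advance, which checks the code and not the calls reported here. Alternatives were other pseudocounts, scalings, limits on level, length and overlap, and other definitions of the class. No sequence is shown, because no genome sequence was used here.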

Additional observations from a re-analysis of the deposited data

How the results depend on the processing

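The count of CR RNAs at least 2-fold higher, 5 as reported, was 3 after scaling to the same sum, 12 with a limit of 10 FPKM (196 RNAs) and 9 with rows of several symbols added. Elsewhere it was 4 to 6, with 5 among the 43 RNAs whose locus overlaps no other feature. The count at least 2-fold lower, also 5, was 8 with the same sum, 11 with a limit of 10 FPKM, 3 with a limit of 50 FPKM, 1 among the 43 RNAs whose locus overlaps no other feature, and 3 among RNAs that are noncoding in the current annotation, a choice made after seeing the data. Elsewhere it was 4, 5 or 7. The median log2 ratio, 0.14 as reported, turned to -0.14 with the same sum. It was 0.12 with a pseudocount of 5, 0.20 with the same median, 0.15 with the same upper quartile, 0.086 and 0.22 with limits of 10 and 50 FPKM, 0.12 and 0.11 with loci of at least 200 and 300 bases, 0.13 above 0 in both libraries, 0.30 without overlapping loci, 0.12 without ribosomal rows (added after seeing the data) and 0.12 among noncoding RNAs. Fewer or more RNAs enter under the limits. For the scalings the cause was not tested. No RNA past 2-fold changed direction under the pseudocounts and scalings. Calls of all features moved too: with the same sum 178 were higher and 361 lower, against 282 and 208. No paired analysis was possible because each group has 1 library. Differences between 2 libraries cannot be set against the spread between flies.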
